A study of Homo sapiens with 12 samples.

Results

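The p53 target genes described here are 29 genes that the transcription factor p53 is known to switch on, leaving out the cyclin-dependent kinase inhibitors and the BCL2 family. They were chosen by symbol, with earlier results of these data known. All 29 were found among the 26506 genes of the table, and all 29 were among the 14230 genes tested. The cells were HK-2, a line of human proximal tubule epithelial cells immortalised with viral oncogenes, carrying 1 of 4 sets of short hairpin RNAs with 3 samples each. Luc976 carried only the hairpin of that name, and its name, which refers to luciferase, an insect enzyme absent from human cells, is why it is taken as the control. The group shVHL61 carried a hairpin against VHL, shKIM-1 (named shKIM1-A1 in the table) a hairpin against KIM-1, and shVHL61-KIM1A1 both. No drug or DNA-damaging agent is named in the labels for any group. The sources used here do not say how the hairpins were delivered, whether a line is 1 clone, or whether the 3 samples of a group were separate cultures. The p-values therefore reflect only how far these samples scatter, and that scatter may be technical.

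As background, p53 is held at a low level by MDM2, a ubiquitin ligase whose own gene p53 switches on, and it builds up when DNA is damaged or when growth, nutrient or ribosome stress reaches the cell. It then activates genes for growth arrest, DNA repair, redox and nutrient control, and cell death. HK-2 carries the E6 and E7 genes of a human papillomavirus. E6 directs p53 to breakdown through the ubiquitin ligase UBE3A, so that p53 activity in such cells is known to be limited. VHL is the part of a ubiquitin ligase that recognises hypoxia-inducible factors, and KIM-1 (gene HAVCR1) is a receptor that injured tubule cells use to take up dead cells.

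Each sample held 16500965 to 21089716 counts, so that 1 count was 0.0486 to 0.0616 CPM. CPM is the count scaled to a common library size, adjusted by TMM (trimmed mean of M-values). VHL stood at 53.2 ± 0.376 CPM in Luc976 and 38.1 ± 1.07 in shVHL61 (mean ± SD, n = 3), and HAVCR1 at 121 ± 10.8 in Luc976 and 57.0 ± 4.45 in shKIM-1. In shVHL61-KIM1A1 the levels were 41.6 ± 2.92 for VHL and 83.7 ± 14.1 for HAVCR1. The epithelial keratin KRT8 was at 787 to 1087 TPM (a level per transcript length, scaled to a common total) and the kidney factor PAX8 at 140 to 211 TPM in every sample, while the proximal tubule receptor LRP2 was listed at 0 in all and AQP1 at no more than 0.12. The other epithelial markers were KRT18 at 461 to 789 TPM, KRT19 at 457 to 689, EPCAM at 47.05 to 133, KRT7 at 4.46 to 6.15 and CDH1 at 1.81 to 5.09. The 10 kidney markers summed to 391 to 439 TPM in Luc976, 351 to 380.1 in shVHL61, 428 to 474 in shKIM-1 and 306 to 316 in shVHL61-KIM1A1. Of the 4 immune markers PTPRC and CD3E were at no more than 0.07 TPM, and the list's summed level of 124 to 131 TPM in Luc976 and 155 to 160 in shVHL61-KIM1A1 was nearly all CD68. The 4 fibroblast markers summed to 104 to 120 TPM in Luc976 and 130 to 155 in shVHL61-KIM1A1, mostly LUM, and the 4 endothelial markers to at most 1.36. Their part in the results was not tested. The samples also fell into 2 sets on the first principal component of their deviations from the group means, which took 26.1% of that variance. Set A held Luc976 samples 1 and 3, shVHL61 sample 1, shKIM-1 sample 2 and shVHL61-KIM1A1 samples 2 and 3, and set B the others. The labels name no batch. Values within each set are given where they moved a called value by over 1.5 times, and for some other members. A set held 1 or 2 samples of each group, so a value within a set can rest on 1 sample of a group.

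Several members are known to be bound by p53 close to a transcription start, and the sites found there are shown for those members. The search covered windows from 250 bases before to 50 bases after each RefSeq start (GRCh38.p14) for the p53 consensus site, a pair of decamers with 0 or 1 base between them and at most 3 mismatches, none of them at the fixed C and G of each decamer. The motif reads the same on both strands. It was found for 7 of the 21 members with a window, and in 8 of their 32 windows (25.0%), against 837 of 35116 windows of all genes (2.38%). The members were chosen as known p53 targets, so a higher share of sites can follow from that choice and says nothing about these samples. No window was available for TP53INP1, TNFRSF10A, TNFRSF10B, RRM2B, GADD45A, PHLDA3, RRAD and TNFRSF10D. A match describes the letters only. Capitals mark the site, and each line gives the window's gene strand, 5′ to 3′.
DDB2, chr11:47214974-47215003, plus strand: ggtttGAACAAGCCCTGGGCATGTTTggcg
MDM2, chr12:68808918-68808947, plus strand: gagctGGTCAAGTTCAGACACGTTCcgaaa
FAS, chr10:88991304-88991333, plus strand: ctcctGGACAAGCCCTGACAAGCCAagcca
AEN, chr15:88621301-88621330, plus strand: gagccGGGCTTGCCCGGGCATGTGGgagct
SESN1, chr6:109009013-109009042, minus strand: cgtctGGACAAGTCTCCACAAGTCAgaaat
FDXR, chr17:74872991-74873020, minus strand: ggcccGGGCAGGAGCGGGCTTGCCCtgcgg
GDF15, chr19:18386181-18386207, plus strand: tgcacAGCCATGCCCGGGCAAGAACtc
The DDB2 site had 0 mismatches and began 6 bases after the start. The sites of MDM2, FAS and AEN had 2 mismatches and lay before a start, from bases -94 to -75, -122 to -103 and -34 to -15. Those of SESN1 (-49 to -30), FDXR (-21 to -2) and GDF15 (29 to 48) had 3. These 7 genes did not move together: DDB2 and SESN1 rose wherever the KIM-1 hairpin was added, FDXR rose in shVHL61-KIM1A1 over both Luc976 and shVHL61, GDF15 rose in shKIM-1 over Luc976 and fell in shVHL61-KIM1A1 over Luc976 and over shKIM-1, AEN fell against Luc976, and MDM2 and FAS passed in no comparison.

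More p53 target genes rose than fell in cells with the KIM-1 hairpin, whether or not the VHL hairpin was there too, and few passed with the VHL hairpin alone. In shKIM-1 over Luc976, 12 of the 29 members rose and 3 fell (edgeR quasi-likelihood test, Benjamini-Hochberg adjusted p below 0.05), with the small GTPase RRAD up 2.83-fold and TP53INP1 up 1.97-fold. Of all genes tested 31.4% passed, 14.8% rose and 16.6% fell in that comparison, so the members' share of rises (41.4%) was above the background and their share of falls (10.3%) below it. In shVHL61-KIM1A1 over shVHL61, 13 members rose and 5 fell, 44.8% and 17.2% against 21.2% and 21.3% of all genes (42.6% in either direction). The median log2 fold change of the members was 0.19 in the first of these comparisons and 0.14 in the second, against 0.0059 and 0.0062 over all genes. These comparisons share no samples, and 9 members rose in both, which is 9 of 12 and 9 of 13. Over all genes tested 1001 rose in both, which is 1001 of 2108 and 1001 of 3020. With limma on log2(TPM + 1) the members of shKIM-1 over Luc976 split into 15 rises and 2 falls, where 68.7% of the calls over all genes were rises, against 47.2% in the edgeR fit.

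In shVHL61 over Luc976, 1 member rose (PLK2) and 2 fell (PERP and AEN), 3.45% and 6.90% against 7.21% and 9.44% of all genes (16.7% in either direction), with a median of 0.01. With limma on log2(TPM + 1) the members split the same way, into 1 and 2, where 28.0% of the calls over all genes were rises, against 43.3% in the edgeR fit. The count of falls was 0 without Luc976 sample 1 or 3 or shVHL61 sample 2 or 3, and 1 without shKIM-1 sample 1 or 3 or shVHL61-KIM1A1 sample 2 or 3, each left out alone. At an unadjusted p below 0.05 the falls were 4, and DESeq2 called 1. In shVHL61-KIM1A1 over shKIM-1, 7 members rose and 6 fell, 24.1% and 20.7% against 21.1% and 20.9% (42.0% in either direction), which is near the background. With limma on log2(TPM + 1) that split was 4 and 10, where the median of all genes was shifted by -0.15 and 19.97% of the calls over all genes were rises, against 50.1% in the edgeR fit. Both hairpins against Luc976 gave 14 rises and 7 falls, 48.3% and 24.1% against 25.2% and 26.3% (51.4% in either direction). Limma on log2(TPM + 1) gave 13 and 8, where 36.7% of the calls over all genes were rises, against 48.9% in the edgeR fit. Comparisons with Luc976 share its 3 samples, and so are not independent of each other. The count of falls in shVHL61-KIM1A1 over shVHL61 was 3 without shVHL61 sample 1 or shVHL61-KIM1A1 sample 3. In shKIM-1 over Luc976 and in shVHL61-KIM1A1 over shVHL61, 1 group held only 1 sample within each library set. The sets were also defined from the residuals of these same samples. Counts of members passed within a set are therefore no independent check of the rises.

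**Figure D1:**
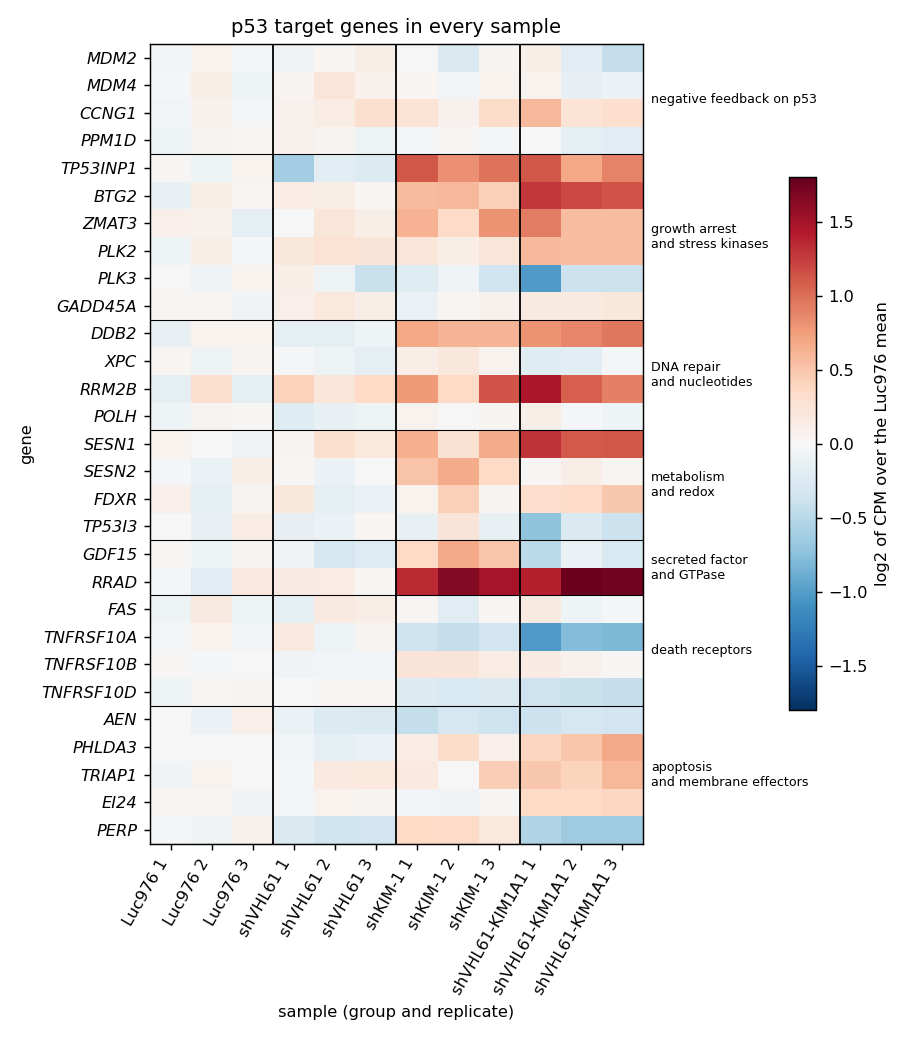
Each row is a p53 target gene, ordered by role, and each column is a sample; colour is the log2 ratio of its CPM to the mean of the 3 Luc976 samples. RRAD, TP53INP1, DDB2, BTG2, SESN1, RRM2B and ZMAT3 are red in all 6 samples with the KIM-1 hairpin, while TNFRSF10A, TNFRSF10D and AEN are blue there.

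Levels per transcript length differed widely between members. In Luc976 the kinase gene PLK2 was highest at 283 ± 21.8 TPM (mean ± SD, n = 3), followed by EI24 at 96.7 ± 4.90 and the death receptor TNFRSF10B at 85.6 ± 1.57. GDF15 (64.1 ± 2.22 TPM), PHLDA3 (44.9 ± 1.43), TNFRSF10D (42.1 ± 1.95), GADD45A (41.3 ± 2.03) and TRIAP1 (40.2 ± 1.97) came next, and the last 3 of these differed by less than their spread. At the low end stood SESN1 (4.64 ± 0.297 TPM), TP53INP1 (3.00 ± 0.131), ZMAT3 (2.89 ± 0.318) and RRM2B (2.54 ± 0.514), the last 3 again within their spread. The 4 members that were lowest in Luc976 all rose with the KIM-1 hairpin, alone and on top of shVHL61. Of the next lowest, PERP (5.39 TPM) rose with that hairpin alone but fell on top of shVHL61. PPM1D (5.48 TPM) and MDM4 (5.94) passed in no comparison, and BTG2 (6.53) rose in both settings. A link between level and rise was not tested.

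**Figure D2:**
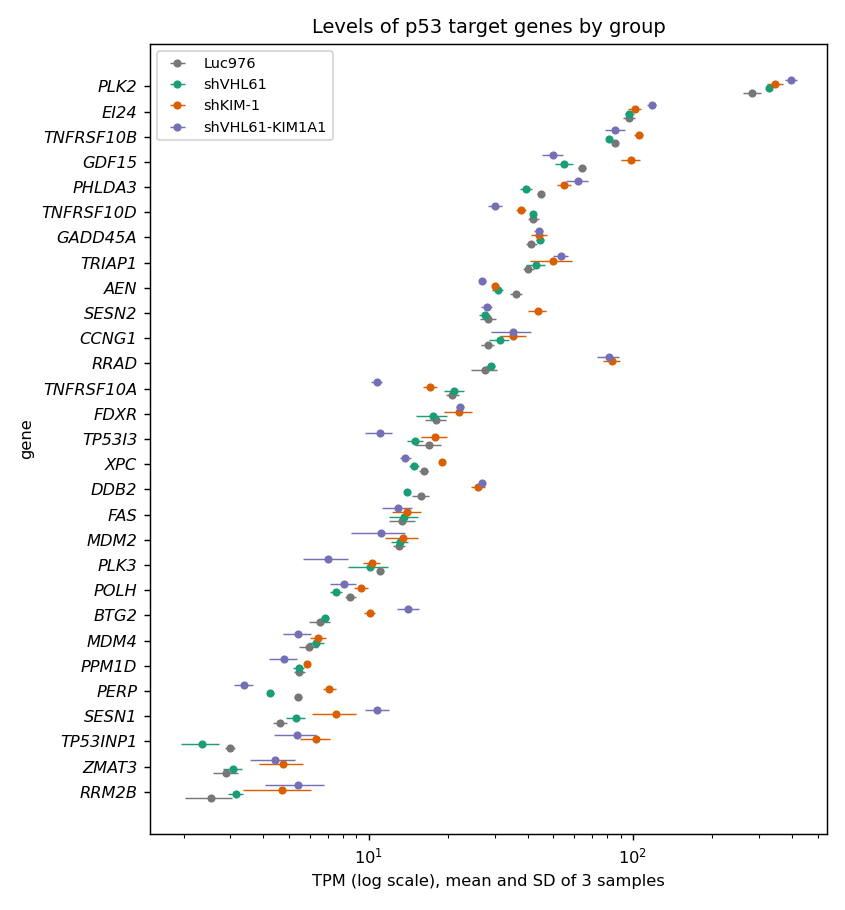
Points are the mean TPM of each p53 target gene in each hairpin group on a log axis, with bars of 1 SD over 3 samples; genes are ordered by their Luc976 mean. PLK2 lies highest and RRM2B lowest in Luc976, and RRAD, TP53INP1, SESN1 and BTG2 have the widest gaps between their highest and lowest group mean.

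Of the 4 genes through which p53 restrains itself, CCNG1 passed in 1 comparison and the others in none. MDM2 encodes the main p53 ubiquitin ligase, MDM4 its partner that blocks p53 activity, PPM1D a phosphatase that removes activating marks from p53 and its kinases, and CCNG1 cyclin G1, which helps to activate MDM2. MDM2 stood at 48.8, 52.8 and 49.8 CPM in Luc976, 48.1, 51.6 and 54.7 in shVHL61, 50.5, 42.1 and 52.1 in shKIM-1 and 54.3, 43.6 and 37.5 in shVHL61-KIM1A1. The 4 groups overlapped, and MDM2 passed in no comparison: shKIM-1 differed from Luc976 by a log2 of -0.06 (95% interval -0.30 to 0.17) and shVHL61-KIM1A1 by -0.16 (-0.40 to 0.07, adjusted p = 0.236). MDM4 had means of 30.8, 33.4, 31.2 and 29.5 CPM in Luc976, shVHL61, shKIM-1 and shVHL61-KIM1A1, and differed by 0.02 (-0.15 to 0.19) in shKIM-1 over Luc976. PPM1D had means of 13.4, 13.5, 13.3 and 12.4 CPM in the same order and differed by -0.0081 (-0.19 to 0.18). In these 3 genes a change of the size seen in DDB2 or TP53INP1 lay outside the interval for shKIM-1 over Luc976. CCNG1 rose in shVHL61-KIM1A1 over Luc976 (log2 change 0.39, SE 0.09, edgeR adjusted p = 0.00255), from 34.9 ± 1.64 to 45.6 ± 5.98 CPM (SD, n = 3), but not in shKIM-1 over Luc976 (0.22, adjusted p = 0.086).

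MDM2, MDM4, PPM1D, FAS and POLH were the 5 members that passed in no comparison. Over their 30 tests (5 genes in 6 comparisons, the interaction included) 2 had an unadjusted p below 0.05 in edgeR, and DESeq2 called 0. With the gene length trend removed, POLH in shVHL61-KIM1A1 over Luc976 changed from a log2 of -0.0025 to 0.17 (adjusted p = 0.0246).

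Among genes of growth arrest and stress signalling, TP53INP1, BTG2, ZMAT3 and PLK2 rose with the KIM-1 hairpin, with and without shVHL61. TP53INP1, a nuclear protein that aids p53 and autophagy, stood at 8.79, 8.16 and 9.10 CPM in Luc976, 5.64, 7.62 and 7.35 in shVHL61, 18.8, 15.4 and 17.02 in shKIM-1 and 18.8, 14.1 and 16.2 in shVHL61-KIM1A1. All 6 samples with the KIM-1 hairpin lay above all 6 without it. It rose 1.97-fold in shKIM-1 over Luc976 (log2 change 0.98, SE 0.13, edgeR adjusted p = 2.75e-05, 0.79 within library set A and 1.13 within set B) and 2.39-fold in shVHL61-KIM1A1 over shVHL61 (log2 change 1.26, SE 0.13, edgeR adjusted p = 1.69e-06). The shVHL61 samples lay below Luc976 without passing (-0.34, adjusted p = 0.106).

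BTG2, an antiproliferative protein that promotes mRNA decay, stood at 8.10, 9.63 and 9.04 CPM in Luc976, 9.77, 9.73 and 9.10 in shVHL61, 13.3, 13.3 and 12.05 in shKIM-1 and 21.6, 20.3 and 19.5 in shVHL61-KIM1A1. Luc976 and shVHL61 overlapped, shKIM-1 lay above both, and shVHL61-KIM1A1 above all others. It rose by 0.53 on the log2 scale in shKIM-1 over Luc976 (SE 0.09, adjusted p = 0.000478) and by 1.10 when the hairpin was added to shVHL61 (SE 0.09, adjusted p = 1.26e-07), with 1.02 within library set A and 1.196 within set B. ZMAT3, a zinc finger protein that binds RNA, stood at 14.4, 14.2 and 12.01 CPM in Luc976, 13.5, 15.7 and 14.5 in shVHL61, 20.96, 17.2 and 23.8 in shKIM-1 and 25.6, 19.9 and 19.9 in shVHL61-KIM1A1. Here too the 6 samples with the KIM-1 hairpin lay above the other 6, and the pair of groups with it overlapped. The rises were 0.61 alone (SE 0.13, adjusted p = 0.00185, 0.38 within library set A and 0.65 within set B) and 0.58 with shVHL61 (SE 0.13, adjusted p = 0.00147).

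PLK2, a polo-like kinase of stress and centriole control, stood at 384, 437 and 398 CPM in Luc976, 468, 487 and 478 in shVHL61, 471, 441 and 473 in shKIM-1 and 607, 594 and 599.9 in shVHL61-KIM1A1. It was the member with the highest CPM and the only one that rose in all 5 comparisons of groups. The step was 0.23 in shVHL61 over Luc976 (SE 0.05, adjusted p = 0.00706), 0.18 in shKIM-1 over Luc976 (adjusted p = 0.0154) and 0.56 with both hairpins (SE 0.05, adjusted p = 3.69e-07). The first of these was 0.27 within library set A and 0.14 within set B, and the second 0.18 within library set A and 0.11 within set B. The call in shKIM-1 over Luc976 was lost without Luc976 sample 1 or 3, or shKIM-1 sample 1 or 3, each left out alone (log2 0.15 to 0.18, adjusted p = 0.0564 to 0.0812). Its relative PLK3 went the other way and stood at 13.9, 13.3 and 14.5 CPM in Luc976, 15.2, 13.0 and 10.5 in shVHL61, 12.01, 13.3 and 10.9 in shKIM-1 and 6.89, 10.6 and 10.7 in shVHL61-KIM1A1. It fell in shVHL61-KIM1A1 over Luc976 (log2 change -0.57, SE 0.15, edgeR adjusted p = 0.00555), where the groups did not overlap, and over shVHL61 (-0.46, adjusted p = 0.0231), where they did. The first fall was -0.41 within library set A. Within set B it was -0.95, from 1 sample of each group. The second fall was -0.51 within library set A and -0.77 within set B. The second call was lost without shVHL61 sample 1 or 2, or shVHL61-KIM1A1 sample 1, each left out alone (log2 -0.45 to -0.28, adjusted p = 0.054 to 0.121). GADD45A, a sensor protein of growth arrest and repair, had means of 27.6, 30.3, 27.6 and 31.2 CPM in Luc976, shVHL61, shKIM-1 and shVHL61-KIM1A1. Its rise in shVHL61-KIM1A1 over Luc976 (0.18, adjusted p = 0.0459) was lost under 16 of 22 alternatives, DESeq2 among them (log2 0.18, adjusted p = 0.063), and without Luc976 sample 1, 2 or 3, or shVHL61 sample 1, 2 or 3, or shVHL61-KIM1A1 sample 1, 2 or 3, each left out alone (log2 0.15 to 0.21, adjusted p = 0.0519 to 0.15).

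**Figure D3:**
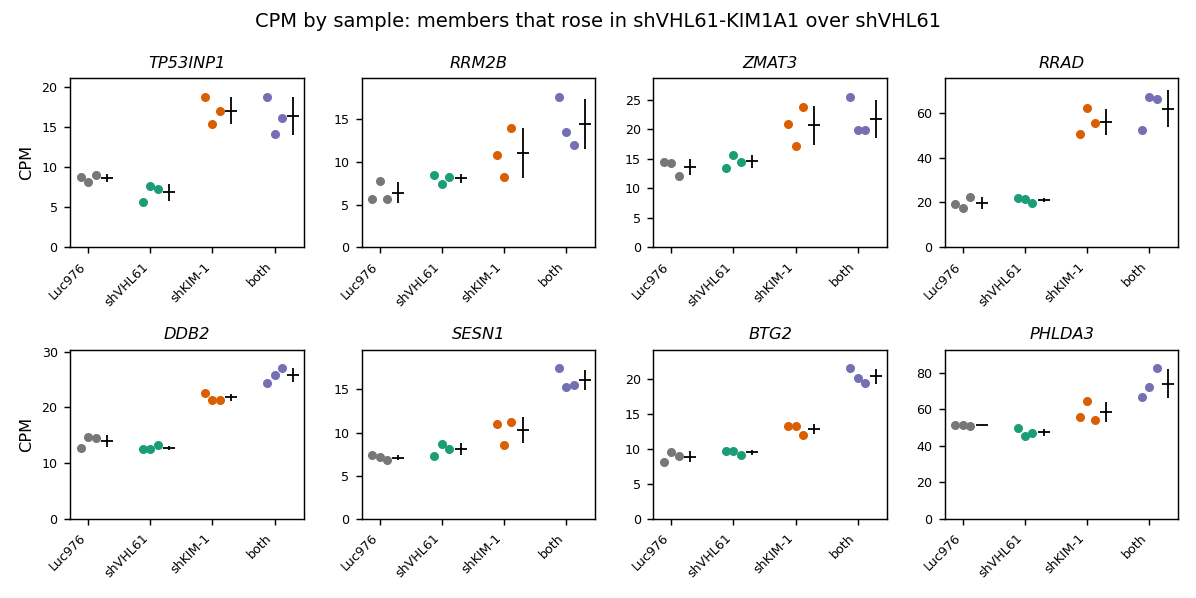
Points are the CPM of single samples in the 4 hairpin groups (both is shVHL61-KIM1A1), with the group mean and 1 SD (n = 3) beside them, for 8 members that rose in shVHL61-KIM1A1 over shVHL61. For TP53INP1, ZMAT3, RRAD, DDB2 and BTG2 all samples with the KIM-1 hairpin lie above all without it, while for RRM2B and SESN1 shKIM-1 overlaps shVHL61. PHLDA3 is separated in the same way, although its change in shKIM-1 over Luc976 did not pass (edgeR adjusted p = 0.0919).

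Of the 4 genes of DNA repair and nucleotide supply, DDB2 and RRM2B rose with the KIM-1 hairpin and XPC and POLH did not. DDB2, which recognises ultraviolet lesions and whose start carries the site with 0 mismatches shown above, stood at 12.7, 14.7 and 14.6 CPM in Luc976, 12.5, 12.5 and 13.2 in shVHL61, 22.6, 21.4 and 21.4 in shKIM-1 and 24.5, 25.8 and 27.0 in shVHL61-KIM1A1. Luc976 and shVHL61 overlapped at the low end, and the 6 samples with the KIM-1 hairpin stood clear of them. It rose 1.56-fold in shKIM-1 over Luc976 (log2 change 0.64, SE 0.08, edgeR adjusted p = 2.28e-05) and 2.02-fold in shVHL61-KIM1A1 over shVHL61 (log2 change 1.01, SE 0.08, edgeR adjusted p = 1.06e-07). The first of these was 0.66 within library set A and 0.58 within set B. Its further rise in shVHL61-KIM1A1 over shKIM-1 (0.24, adjusted p = 0.0182) was lost within library set B (0.15, adjusted p = 0.249), with limma on log2(TPM + 1) (0.05, adjusted p = 0.549) and without shKIM-1 sample 3, or shVHL61-KIM1A1 sample 3, each left out alone (log2 0.20 to 0.23, adjusted p = 0.0527 to 0.0795). RRM2B, the p53-induced subunit of ribonucleotide reductase, stood at 5.68, 7.80 and 5.71 CPM in Luc976, 8.504, 7.42 and 8.22 in shVHL61, 10.8, 8.17 and 14.0 in shKIM-1 and 17.6, 13.5 and 11.996 in shVHL61-KIM1A1. Its samples spread more than those of DDB2, yet each of the 6 with the KIM-1 hairpin exceeded every Luc976 sample, while shKIM-1 and shVHL61 overlapped. It rose by 0.78 in shKIM-1 over Luc976 (SE 0.19, adjusted p = 0.00497, 0.53 within library set A and 0.67 within set B) and by 0.83 in shVHL61-KIM1A1 over shVHL61 (SE 0.18, adjusted p = 0.00137, 0.58 within library set A and 1.17 within set B).

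XPC, a damage sensor that works with DDB2, had means of 30.7, 28.6, 33.5 and 27.7 CPM in Luc976, shVHL61, shKIM-1 and shVHL61-KIM1A1. It passed in 1 comparison, a fall in shVHL61-KIM1A1 over shKIM-1 (log2 change -0.28, SE 0.08, edgeR adjusted p = 0.00804). POLH, the polymerase that copies past ultraviolet lesions, had means of 37.0, 33.3, 38.1 and 37.0 CPM and differed by 0.04 in shKIM-1 over Luc976 (95% interval -0.11 to 0.19).

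The sestrins, stress proteins that restrain the growth kinase mTORC1, parted from each other. SESN1 stood at 7.42, 7.14 and 6.78 CPM in Luc976, 7.34, 8.73 and 8.12 in shVHL61, 11.1, 8.59 and 11.3 in shKIM-1 and 17.5, 15.3 and 15.5 in shVHL61-KIM1A1. Its level in shKIM-1 exceeded every Luc976 sample but overlapped shVHL61, and in shVHL61-KIM1A1 it stood above all other samples. It rose by 0.53 in shKIM-1 over Luc976 (SE 0.12, adjusted p = 0.00263) and 2.00-fold in shVHL61-KIM1A1 over shVHL61 (log2 change 0.997, SE 0.11, edgeR adjusted p = 3.64e-06). Within library set A the first rise was 0.28, adjusted p = 0.211, and in set B it was 0.64. SESN2, which amino acid stress also induces, stood at 50.4, 47.2 and 55.5 CPM in Luc976, 52.0, 47.4 and 50.95 in shVHL61, 73.0, 81.1 and 65.6 in shKIM-1 and 51.6, 55.7 and 52.1 in shVHL61-KIM1A1. Only the shKIM-1 samples stood above Luc976, and the other 3 groups overlapped. SESN2 rose by 0.52 in shKIM-1 over Luc976 (SE 0.08, adjusted p = 0.000159), differed by 0.08 in shVHL61-KIM1A1 over shVHL61 (95% interval -0.09 to 0.26), and fell by 0.46 in shVHL61-KIM1A1 over shKIM-1 (SE 0.08, adjusted p = 0.000257).

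FDXR, the mitochondrial reductase that hands electrons to ferredoxin, had means of 16.8, 16.6, 19.2 and 21.98 CPM in Luc976, shVHL61, shKIM-1 and shVHL61-KIM1A1, and rose in shVHL61-KIM1A1 over Luc976 (0.39, adjusted p = 0.0124) and over shVHL61 (0.40, adjusted p = 0.012). The first call was lost without shVHL61-KIM1A1 sample 3 (log2 0.33, adjusted p = 0.0559), and the second without shVHL61 sample 2 or 3, or shVHL61-KIM1A1 sample 3, each left out alone (log2 0.33 to 0.36, adjusted p = 0.0519 to 0.0601) and within library set A (log2 0.21, adjusted p = 0.11). TP53I3, an oxidoreductase tied to p53-dependent death, had means of 13.2, 12.5, 13.1 and 9.67 CPM and fell in shVHL61-KIM1A1 over each other group, by 0.44 over Luc976 (adjusted p = 0.00933), 0.37 over shVHL61 (adjusted p = 0.0289) and 0.44 over shKIM-1 (adjusted p = 0.0121). Those calls were lost without shVHL61-KIM1A1 sample 1 (log2 -0.32, adjusted p = 0.0537) for Luc976, without shVHL61 sample 3, or shVHL61-KIM1A1 sample 1 or 3, each left out alone (log2 -0.41 to -0.25, adjusted p = 0.05 to 0.136) for shVHL61, and without shKIM-1 sample 2, or shVHL61-KIM1A1 sample 1, each left out alone (log2 -0.32 to -0.31, adjusted p = 0.0606 to 0.0636) for shKIM-1. The fall over shVHL61 was -0.18 within library set A and -0.68 within set B, and it did not pass in set A (adjusted p = 0.303).

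RRAD, a Ras-related GTPase that restrains calcium channels and glucose uptake, had the largest rise of the 29 in both comparisons that add the KIM-1 hairpin. It stood at 19.5, 17.4 and 22.4 CPM in Luc976, 21.8, 21.6 and 19.97 in shVHL61, 50.3, 62.1 and 55.2 in shKIM-1 and 52.3, 67.2 and 65.9 in shVHL61-KIM1A1. The 6 samples with the hairpin lay far above the other 6, and on each side of that gap the groups overlapped. The rise was 2.83-fold in shKIM-1 over Luc976 (log2 change 1.503, SE 0.11, edgeR adjusted p = 8.5e-08, 1.58 within library set A and 1.60 within set B) and 2.92-fold in shVHL61-KIM1A1 over shVHL61 (log2 change 1.55, SE 0.11, edgeR adjusted p = 2.9e-08, 1.61 within library set A and 1.33 within set B). Its log2 fold change of shVHL61 over Luc976 had a 95% interval of -0.15 to 0.35, and that of shVHL61-KIM1A1 over shKIM-1 one of -0.07 to 0.36. GDF15, a secreted stress cytokine, behaved otherwise and stood at 37.4, 35.1 and 38.4 CPM in Luc976, 35.3, 29.8 and 31.6 in shVHL61, 47.3, 59.3 and 52.4 in shKIM-1 and 26.8, 34.1 and 30.7 in shVHL61-KIM1A1. The shKIM-1 samples were above all others, and the shVHL61-KIM1A1 samples below every Luc976 sample. GDF15 rose by 0.52 in shKIM-1 over Luc976 (SE 0.10, adjusted p = 0.000696) and fell by 0.80 in shVHL61-KIM1A1 over shKIM-1 (SE 0.10, adjusted p = 7.78e-06). Its fall in shVHL61-KIM1A1 over Luc976 (-0.28, adjusted p = 0.0285) was lost without Luc976 sample 1 or 3, or shVHL61-KIM1A1 sample 1 or 3, each left out alone (log2 -0.28 to -0.19, adjusted p = 0.0615 to 0.136).

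Of the 4 death receptor genes 1 rose and 2 fell both in shKIM-1 over Luc976 and in shVHL61-KIM1A1 over shVHL61. TNFRSF10A and TNFRSF10B encode the receptors through which the ligand TRAIL triggers cell death, TNFRSF10D a decoy receptor that binds TRAIL without a full death domain, and FAS the receptor of the FAS ligand. The TNFRSF10 genes are paralogs, and reads they share could have been split between them in the authors' counting. TNFRSF10A stood at 17.7, 18.8 and 17.3 CPM in Luc976, 20.2, 16.8 and 18.5 in shVHL61, 13.8, 13.3 and 14.1 in shKIM-1 and 8.84, 10.4 and 10.2 in shVHL61-KIM1A1. The shKIM-1 samples lay below all Luc976 and shVHL61 samples, and the shVHL61-KIM1A1 samples lay lower still. It fell by 0.38 in shKIM-1 over Luc976 (SE 0.09, adjusted p = 0.00421) and by 0.91 in shVHL61-KIM1A1 over shVHL61 (SE 0.09, adjusted p = 1.65e-06), -0.97 within library set A and -0.997 within set B. TNFRSF10D had means of 75.7, 76.3, 63.3 and 57.4 CPM in Luc976, shVHL61, shKIM-1 and shVHL61-KIM1A1, and fell by 0.26 (adjusted p = 0.00232) and 0.41 (adjusted p = 2.91e-05) in the same comparisons. With limma on log2(TPM + 1) the first did not pass (log2 -0.15, adjusted p = 0.0725).

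TNFRSF10B, the TRAIL receptor with the higher level, had means of 179.7, 173, 206 and 190.4 CPM in the same order of groups and rose by 0.20 in shKIM-1 over Luc976 (SE 0.05, adjusted p = 0.00776). Its rise in shVHL61-KIM1A1 over shVHL61 (0.14, adjusted p = 0.0369) was lost under 10 of 22 alternatives, among them without shVHL61 sample 1, 2 or 3, or shVHL61-KIM1A1 sample 1 or 2, each left out alone (log2 0.11 to 0.14, adjusted p = 0.079 to 0.123). FAS stood at 16.99, 20.3 and 17.2 CPM in Luc976, 16.2, 20.3 and 19.7 in shVHL61, 18.5, 15.7 and 18.6 in shKIM-1 and 20.3, 17.3 and 17.8 in shVHL61-KIM1A1. Its groups overlapped throughout, and shKIM-1 differed from Luc976 by -0.05 (95% interval -0.27 to 0.18).

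Among apoptosis and membrane effectors, PHLDA3, TRIAP1 and EI24 were higher with both hairpins, AEN was lower, and PERP rose in shKIM-1 but fell in shVHL61-KIM1A1. PHLDA3, which blocks membrane docking of the kinase AKT, stood at 51.3, 51.4 and 50.9 CPM in Luc976, 49.6, 45.6 and 47.1 in shVHL61, 56.0, 64.7 and 54.4 in shKIM-1 and 66.7, 72.4 and 82.4 in shVHL61-KIM1A1. The shVHL61-KIM1A1 samples lay above all others, and the shKIM-1 samples above all Luc976 and shVHL61 samples. It rose by 0.64 over shVHL61 (SE 0.08, adjusted p = 1.37e-05) and by 0.34 over shKIM-1 (SE 0.08, adjusted p = 0.00282), while shKIM-1 over Luc976 did not pass (0.19, adjusted p = 0.0919). With limma on log2(TPM + 1) the difference from shKIM-1 did not pass (log2 0.16, adjusted p = 0.0742). EI24, an endoplasmic reticulum protein of autophagy and cell death, had means of 110.5, 113, 108 and 142 CPM in Luc976, shVHL61, shKIM-1 and shVHL61-KIM1A1 and rose in the last, by 0.37 over Luc976 (SE 0.05, adjusted p = 3.34e-05). TRIAP1, a mitochondrial lipid carrier that limits apoptosis, had means of 22.8, 24.8, 26.4 and 32.2 CPM and rose by 0.50 over Luc976 with both hairpins (SE 0.10, adjusted p = 0.00069). Its rise over shKIM-1 (0.28, adjusted p = 0.0315) was lost under 8 of 22 alternatives, among them without shKIM-1 sample 1 or 2, or shVHL61-KIM1A1 sample 1 or 3, each left out alone (log2 0.18 to 0.29, adjusted p = 0.0529 to 0.13). It was 0.52 within library set A and 0.17 within set B.

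PERP, a tetraspan membrane protein of desmosomes and apoptosis, was the one member that passed in all 6 comparisons and stood at 11.68, 11.4 and 12.5 CPM in Luc976, 9.91, 9.23 and 9.36 in shVHL61, 15.2, 15.1 and 13.6 in shKIM-1 and 8.15, 7.63 and 7.64 in shVHL61-KIM1A1. The 4 groups did not overlap: shKIM-1 was highest, Luc976 next, then shVHL61, and shVHL61-KIM1A1 lowest. It rose by 0.30 in shKIM-1 over Luc976 (SE 0.08, adjusted p = 0.0125, 0.33 within library set A and 0.33 within set B, where neither passed, with adjusted p = 0.0708 and 0.0558) and fell by 0.90 when shVHL61 was added to that hairpin (SE 0.09, adjusted p = 8.12e-07). The fall in shVHL61 over Luc976 was smaller (log2 change -0.32, SE 0.09, edgeR adjusted p = 0.0211) and was lost under 7 of 22 alternatives. Among these were DESeq2 (log2 -0.31, adjusted p = 0.0511) and fits without Luc976 sample 1 or 3, or shVHL61 sample 2 or 3, each left out alone (log2 -0.32 to -0.28, adjusted p = 0.0604 to 0.0957). The others were the fits within library sets A (-0.28) and B (-0.29), each with 1 sample in 1 of these groups. The fall in shVHL61-KIM1A1 over shVHL61 (-0.28, adjusted p = 0.0222) was lost without shVHL61 sample 1, or shVHL61-KIM1A1 sample 2 or 3, each left out alone (log2 -0.27 to -0.25, adjusted p = 0.0661 to 0.0762), within library set B (log2 -0.19, adjusted p = 0.347), with DESeq2 (log2 -0.29, adjusted p = 0.0541) and with the gene length trend removed (log2 -0.23, adjusted p = 0.0519). AEN, a nuclease that cuts DNA in apoptosis, had means of 57.1, 49.5, 44.2 and 44.9 CPM in Luc976, shVHL61, shKIM-1 and shVHL61-KIM1A1 and fell by 0.37 in shKIM-1 (SE 0.07, adjusted p = 0.000747) and 0.35 in shVHL61-KIM1A1 (adjusted p = 0.000575), both over Luc976. Its fall in shVHL61 over Luc976 (-0.21, adjusted p = 0.0493) was lost under 14 of 22 alternatives, among them without Luc976 sample 1 or 3, or shVHL61 sample 2 or 3, or shKIM-1 sample 1 or 3, or shVHL61-KIM1A1 sample 2 or 3, each left out alone (log2 -0.21 to -0.16, adjusted p = 0.0608 to 0.214).

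**Figure D4:**
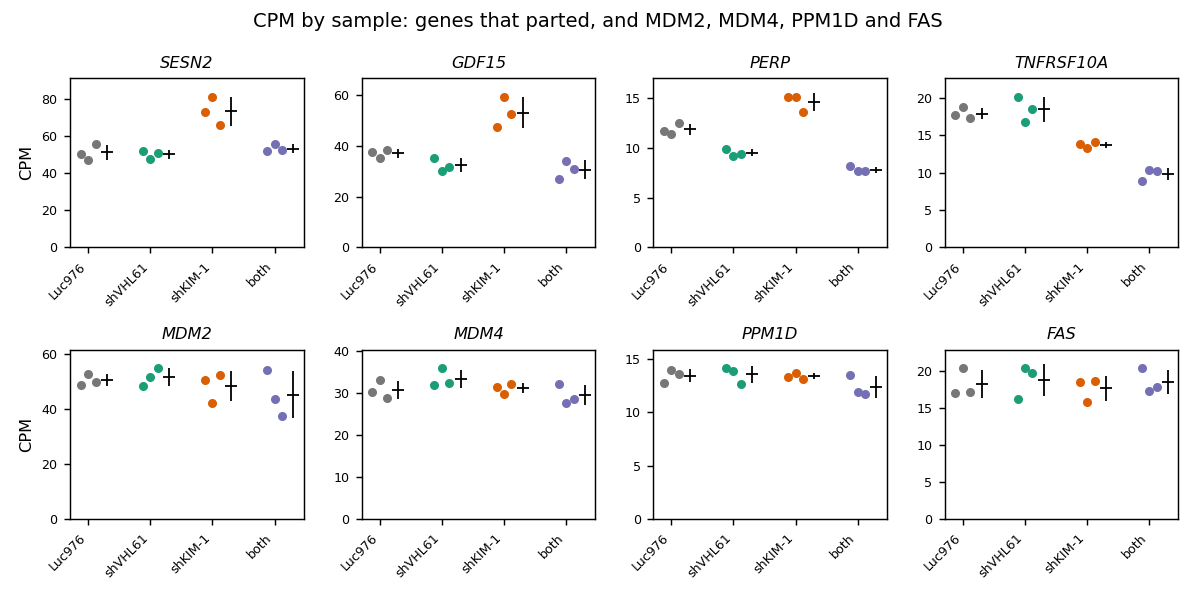
Points are the CPM of single samples in the 4 hairpin groups (both is shVHL61-KIM1A1), with the group mean and 1 SD (n = 3) beside them. SESN2, GDF15 and PERP are highest in shKIM-1 and not raised in shVHL61-KIM1A1, TNFRSF10A is lower in both groups with the KIM-1 hairpin, and MDM2, MDM4, PPM1D and FAS overlap between groups.

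The effect of the KIM-1 hairpin differed between cells with and without the VHL hairpin for 8 of the 29 members, by a test of the difference itself. The interaction is the log2 effect of the KIM-1 hairpin in shVHL61 cells minus its effect in cells without that hairpin. HAVCR1 itself changed by -1.08 in shKIM-1 over Luc976 and by -0.78 in shVHL61-KIM1A1 over shVHL61 (interaction 0.31, edgeR adjusted p = 0.152). It was higher by 0.55 in shVHL61-KIM1A1 than in shKIM-1 (edgeR adjusted p = 0.000476). The part of this difference in the members' interactions was not tested. It was positive for BTG2 (0.57, adjusted p = 0.00562), PHLDA3 (0.45, adjusted p = 0.0115), DDB2 (0.37, adjusted p = 0.0298) and EI24 (0.36, adjusted p = 0.0033), and negative for GDF15 (-0.60, adjusted p = 0.00633), PERP (-0.58, adjusted p = 0.00409), TNFRSF10A (-0.53, adjusted p = 0.00906) and SESN2 (-0.44, adjusted p = 0.0138). The SEs of these 8 values ran from 0.08 to 0.14. Over all genes 10.2% had a positive and 9.52% a negative interaction past the threshold (19.8% in either direction). That is near the 13.8% of the members in each direction. The members' median was 0.03, and 3 of the 8 calls passed under every alternative run. With limma on log2(TPM + 1) the members split into 2 positive and 7 negative, where the median of all genes was shifted by -0.13 and 24.5% of calls over all genes were positive, against 51.8% in the edgeR fit. The DDB2 interaction did not pass under 13 of 21 alternatives, among them without Luc976 sample 2 or 3, or shVHL61 sample 1 or 2, or shKIM-1 sample 3, or shVHL61-KIM1A1 sample 2 or 3, each left out alone (log2 0.32 to 0.37, adjusted p = 0.0585 to 0.0834). Those of BTG2 (0.37, adjusted p = 0.173) and PHLDA3 (0.30, adjusted p = 0.0554) did not pass within library set A, that of PERP within set B (-0.52, adjusted p = 0.0758), and that of EI24 with limma on log2(TPM + 1) (0.20, adjusted p = 0.0878). For SESN1 the interaction was 0.46 (adjusted p = 0.0547) and did not pass. RRAD (0.04, 95% interval -0.28 to 0.37), ZMAT3 (-0.02, -0.40 to 0.35) and RRM2B (0.05, -0.50 to 0.61) rose with the KIM-1 hairpin in both settings with no interaction past the threshold.

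**Figure D5:**
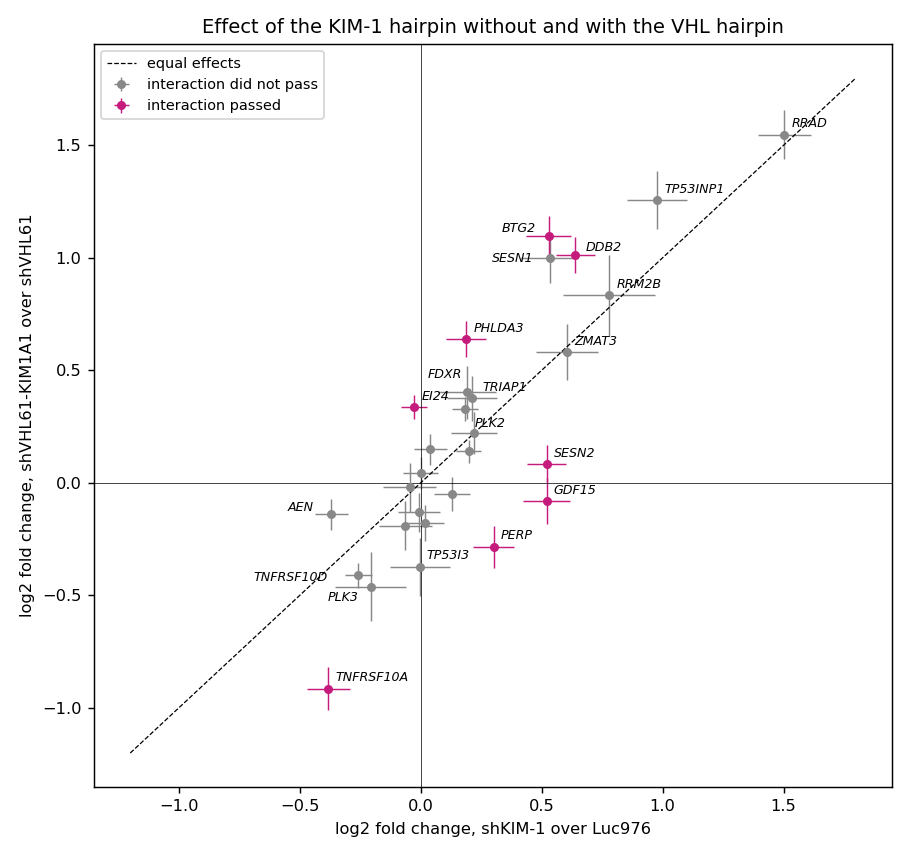
Each point is a p53 target gene, with its log2 fold change in shKIM-1 over Luc976 across and in shVHL61-KIM1A1 over shVHL61 upward, and bars of 1 SE; the dashed line marks equal effects and genes whose interaction passed are coloured. BTG2, DDB2, PHLDA3 and EI24 lie above the line, and SESN2, GDF15, PERP and TNFRSF10A below it.

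Of 25 measured genes for relatives and regulators of p53, 2 rose and 9 fell in shKIM-1 over Luc976 (8% and 36%, against 14.8% and 16.6% of all genes, median -0.12), with the DNA damage adaptor MDC1 down by 0.39 (adjusted p = 0.000273). In shVHL61-KIM1A1 over shVHL61, 5 rose and 11 fell (20% and 44%, against 21.2% and 21.3%, median -0.20), with HIPK2, a kinase that activates p53, down by 0.73 (adjusted p = 1.24e-06). In shVHL61 over Luc976, 3 rose and 1 fell (12% and 4%, against 7.21% and 9.44%), with the nucleolar protein NPM1 up by 0.23 (adjusted p = 0.0127).

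CDKN1A, which encodes the cell cycle inhibitor p21, rose with either hairpin alone. Its mean was 26.3 ± 2.80 CPM in Luc976 and 71.4 ± 3.20 in shVHL61, against 102 ± 9.24 in shKIM-1 and 121 ± 6.34 in shVHL61-KIM1A1 (SD, n = 3), a log2 rise of 1.44 in shVHL61 over Luc976 (adjusted p = 1.13e-08) with an interaction of -1.202 (adjusted p = 2.85e-06). Of the 7 p53 targets CDKN1A, BAX, BBC3, PMAIP1, BID, APAF1 and PIDD1, 3 rose and 3 fell in shVHL61 over Luc976, 3 rose and 2 fell in shKIM-1 over Luc976, and 4 rose and 0 fell in shVHL61-KIM1A1 over shVHL61. In percent these rises and falls were 42.9 and 42.9, 42.9 and 28.6, and 57.1 and 0. All genes gave 7.21 and 9.44, 14.8 and 16.6, and 21.2 and 21.3 in the same order. Among 40 measured targets outside these lists, 3 rose and 5 fell in shVHL61 over Luc976 (median -0.0031), 11 rose and 3 fell in shKIM-1 over Luc976 (median 0.12), and 14 rose and 6 fell in shVHL61-KIM1A1 over shVHL61 (median -0.0038). In percent that is 7.5 and 12.5 for shVHL61 (all genes 7.21 and 9.44) and 27.5 and 7.50 for shKIM-1 (14.8 and 16.6), both over Luc976. For shVHL61-KIM1A1 over shVHL61 it is 35 and 15 (21.2 and 21.3). NOTCH1 fell by 0.40 in shVHL61 over Luc976 (edgeR adjusted p = 0.00426). The antiproliferative BTG1 rose by 0.58 in shKIM-1 over Luc976 (adjusted p = 0.000273). RPS27L, a ribosomal protein paralog that p53 induces, rose by 0.98 in shVHL61-KIM1A1 over shVHL61 (adjusted p = 6.1e-08).

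Some members also answer to other stress factors, and 2 further lists were read beside them. GDF15, SESN2 and GADD45A are known targets of ATF4, the factor of amino acid stress. Of 20 ATF4 response genes, 4 rose and 6 fell in shKIM-1 over Luc976 (median -0.06), 9 rose and 3 fell in shVHL61-KIM1A1 over shVHL61 (median 0.16), and 11 had a positive and 1 a negative interaction. In percent these rises and falls were 20 and 30 for the first comparison (all genes 14.8 and 16.6), 45 and 15 for the second (21.2 and 21.3), and 55 and 5 for the interaction (10.2 and 9.52). The members GDF15 and SESN2 had negative interactions. Asparagine synthetase ASNS rose by 1.06 in shVHL61-KIM1A1 over shVHL61 (adjusted p = 8.22e-09). Of the same list STC2 fell by 0.55 in shKIM-1 over Luc976 (edgeR adjusted p = 1.83e-05), and ATF3 had an interaction of 1.36 (edgeR adjusted p = 5.48e-05). Of 24 proliferation genes, 7 rose and 7 fell in shKIM-1 over Luc976 and 3 rose and 11 fell in shVHL61-KIM1A1 over shVHL61 (medians 0.03 and -0.16), where the proliferation marker MKI67 fell by 0.55 (adjusted p = 1.06e-06). The proliferation genes' rises and falls were 29.2% and 29.2% in the first of these comparisons and 12.5% and 45.8% in the second, against 14.8% and 16.6%, and 21.2% and 21.3%, of all genes. The proliferation gene with the smallest p in shKIM-1 over Luc976 was TYMS, which rose by 0.36 (edgeR adjusted p = 4.44e-05). The part of ATF4 or of proliferation in the members' values was not tested.

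The authors' deposited table gives its own fold over Luc976 and a value headed PPEE, the term used in EBSeq for the posterior probability that a gene is equally expressed. In the authors' deposited table PPEE was below 0.05 for 1 member in shVHL61 (a fold above 1), for 10 members in shKIM-1 (8 above and 2 below 1) and for 19 in shVHL61-KIM1A1 (13 above and 6 below 1). The share of all genes with a PPEE below 0.05 is not given here, so these counts have no background to be judged against. All of these members were also called in the edgeR fit, which called 3, 15 and 21. The edgeR calls without a PPEE below 0.05 were AEN and PERP in shVHL61, and GADD45A and PERP in shVHL61-KIM1A1. In shKIM-1 they were BTG2, TNFRSF10A, RRM2B, PLK2 and PERP. PPEE was 0.999997 for BTG2 and 0.215 for RRM2B in shKIM-1, and 0.99986 for PERP in shVHL61-KIM1A1. The log2 of the authors' deposited folds differed from the edgeR values by at most 0.016 over the 29 members.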

How the data were processed

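RNA of 12 HK-2 samples in 4 hairpin groups was sequenced after Trizol extraction and an Illumina TruSeq RNA preparation, per the labels' protocols. The deposited table holds expected counts (estimates of reads per gene, not always whole numbers), TPM and FPKM per sample, made by the authors, per the file headers. It also holds the authors' fold (a linear ratio over Luc976) and PPEE, a probability between 0 and 1, both per the file headers. Bowtie 0.12.2 and the mouse builds mm8 and mm9 are named, with no role, per the submitters' processing notes. No human build, annotation, quantifier or strand setting is named in the sources used here, so the coordinates printed are those of RefSeq's own table.

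Expected counts were rounded to whole numbers, genes were filtered with filterByExpr (minimum count 10), and libraries were scaled by TMM. One edgeR 4.0.16 quasi-likelihood fit took in all 12 samples and had a term for each of the 4 groups (8 residual degrees of freedom, biological coefficient of variation 6.81%). Tests are two-sided and adjusted by Benjamini-Hochberg over the 14230 genes tested, with 0.05 as threshold. An SE is the size of the log2 fold change divided by the square root of F, and 95% intervals use the fit's degrees of freedom. The procedure was tested on simulated counts. Alternatives were RLE size factors, no filter, DESeq2 1.42.0, limma 3.58.1 on log2(TPM + 1), fits of the compared groups alone, a replicate block, removal of the trend with gene length (FPKM deposited by the authors gave the lengths), the library set as a term, and each sample left out. Fits within each library set, with 2 residual degrees of freedom, were added after seeing the data.

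The members and lists were chosen with earlier results of these data known. All 29 members are named; values in every sample are given for those that passed with a log2 fold change of at least 0.5 in size, and for MDM2 and FAS, which were added after their values were seen. CDKN1A, VHL and HAVCR1 were named by rule, and, for the list comparisons described, the member with the smallest p where one passed. Of the genes named by the rule, 1 more is not reported here, and it was left out of the list of regulators.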

Additional observations from a re-analysis of the deposited data

Results flagged for a closer look

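For 8 members the effect of the KIM-1 hairpin differed between cells with and without the VHL hairpin, by edgeR's test of the interaction, and each is given here as log2 in shKIM-1 over Luc976, log2 in shVHL61-KIM1A1 over shVHL61, and the difference. For BTG2 the values were 0.53, 1.10 and 0.57 (adjusted p = 0.00562). For PHLDA3 the values were 0.19, 0.64 and 0.45 (adjusted p = 0.0115). For DDB2 the values were 0.64, 1.01 and 0.37 (adjusted p = 0.0298). For EI24 the values were -0.03, 0.34 and 0.36 (adjusted p = 0.0033). For GDF15 the values were 0.52, -0.08 and -0.60 (adjusted p = 0.00633). For PERP the values were 0.30, -0.28 and -0.58 (adjusted p = 0.00409). For TNFRSF10A the values were -0.38, -0.91 and -0.53 (adjusted p = 0.00906). For SESN2 the values were 0.52, 0.08 and -0.44 (adjusted p = 0.0138). Over all genes 19.8% passed this test, 10.2% with a positive and 9.52% with a negative value, which is near the 13.8% of the members each way. The DDB2 interaction was lost under 13 of 21 alternatives. The effects of PERP passed in opposite directions, but the second of them was lost under 6 of 22 alternatives.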

How the results depend on the processing

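Most counts of risen and fallen members stayed within 1.5 times the main count under the alternatives run; the exceptions follow. In shVHL61 over Luc976 the falls (2) numbered 1 with RLE size factors, with no filter, with DESeq2, with only these groups fitted and with the replicate block, 4 with the library set as a term, and 1 and 0 within library sets A and B. The rises (1) numbered 2 within set A. In shVHL61-KIM1A1 over shKIM-1, limma on log2(TPM + 1) gave 4 rises and 10 falls, against 7 and 6. For the interaction (4 positive, 4 negative) it gave 2 and 7, and the library set as a term gave 7 and 7. The cause was not tested. Leaving out 1 sample at a time gave 1 to 1 rises and 0 to 2 falls in shVHL61 over Luc976, 11 to 14 and 3 to 3 in shKIM-1 over Luc976, 12 to 14 and 6 to 7 in shVHL61-KIM1A1 over Luc976, 11 to 14 and 3 to 5 over shVHL61, 6 to 8 and 5 to 7 over shKIM-1, and 3 to 4 and 4 to 4 for the interaction. Among values that passed in the main fit or under the alternative, the direction of 1 turned, POLH in shVHL61-KIM1A1 over Luc976 (0.17 with the gene length trend removed). Changes of sign in values that passed in neither were not counted. Of the calls, 1 of 3, 11 of 15, 17 of 21, 12 of 18, 9 of 13 and 3 of 8 passed under every alternative run, in the same order. Over all genes, the library set as a term raised the genes passed from 2370 to 4080 in shVHL61 over Luc976 and from 2811 to 4764 for the interaction. The sets were defined from the same residuals, so this term takes up residual spread by construction. Leaving out a sample lowered the first of these to 1329 at the least (without shVHL61 sample 2). Replicate numbers are shared between groups, but same-numbered samples correlated from -0.33 to 0.25 in their deviations, with 6 of 18 pairs above 0.1, so the number was not taken as a pairing. With the replicate block 4 of 174 member values lost their call and the genes passed in shVHL61 over Luc976 numbered 1732.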
